A study of Mus musculus with 15 samples.

Results

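Semaphorins and plexins are the ligands and receptors of a guidance system first known from growing axons and also used by endothelial cells. The genes described here are the 29 of 45706 in the deposited table whose symbol is that of a semaphorin of classes 3 to 7 or of a plexin of types A to D, 20 semaphorins and 9 plexins. They were measured by stranded poly-A RNA sequencing in lymphatic endothelial cells (LECs), which line lymphatic vessels and the sinuses of lymph nodes. The cells carried the surface proteins Pdpn and CD31, lacked CD45, and came from axillary, brachial, cervical, inguinal and popliteal nodes that were pooled from female C57Bl/6 mice, whose age the labels do not give. There were 5 libraries, lettered A to E, for each of 3 doses of purified murine VEGF-C, namely 0 (unstimulated), 10 and 100 ng/mL, and all cells were cultured for 72 h in MEMα medium with 10% fetal bovine serum. VEGF-C is a growth factor of lymphatic vessels, and Flt4 is its main receptor on LECs.

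Class 3 semaphorins are secreted, and most of them act through a neuropilin that binds the ligand and a plexin that carries the signal into the cell. Semaphorins of classes 4 to 6 span the membrane and Sema7a is held by a lipid anchor, and most of these bind plexins without a neuropilin. An activated plexin acts on small GTPases and on the actin cytoskeleton and usually makes a cell withdraw or lose adhesion. Plxnd1, the receptor of Sema3e, is known from endothelial cells, where the pair guides sprouting vessels.

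In cells given 100 ng/mL, 11 of the 27 members that passed the filter on low counts were higher and 4 were lower than in unstimulated cells by edgeR's quasi-likelihood test, at an adjusted p under 0.05 over 17650 genes. Over all genes tested, 21.3% were higher and 21.5% were lower. The median log2 fold change of the members was 0.17, against 0.008 over all genes. The largest rises belonged to Sema3g, which passed the filter through its 100 ng/mL libraries, and to Sema6d, Sema4c, Sema3a and Plxnb1. Plxnb2, which encodes a receptor of class 4 semaphorins, was the most abundant member that fell. The libraries of both groups did not overlap for 10 members, where 27.2% of all genes had no overlap. Sema4a and Sema4f were not tested, with between 1.04 and 17.2 estimated counts per library. In cells given 10 ng/mL, no member passed the test.

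**Figure D1:**
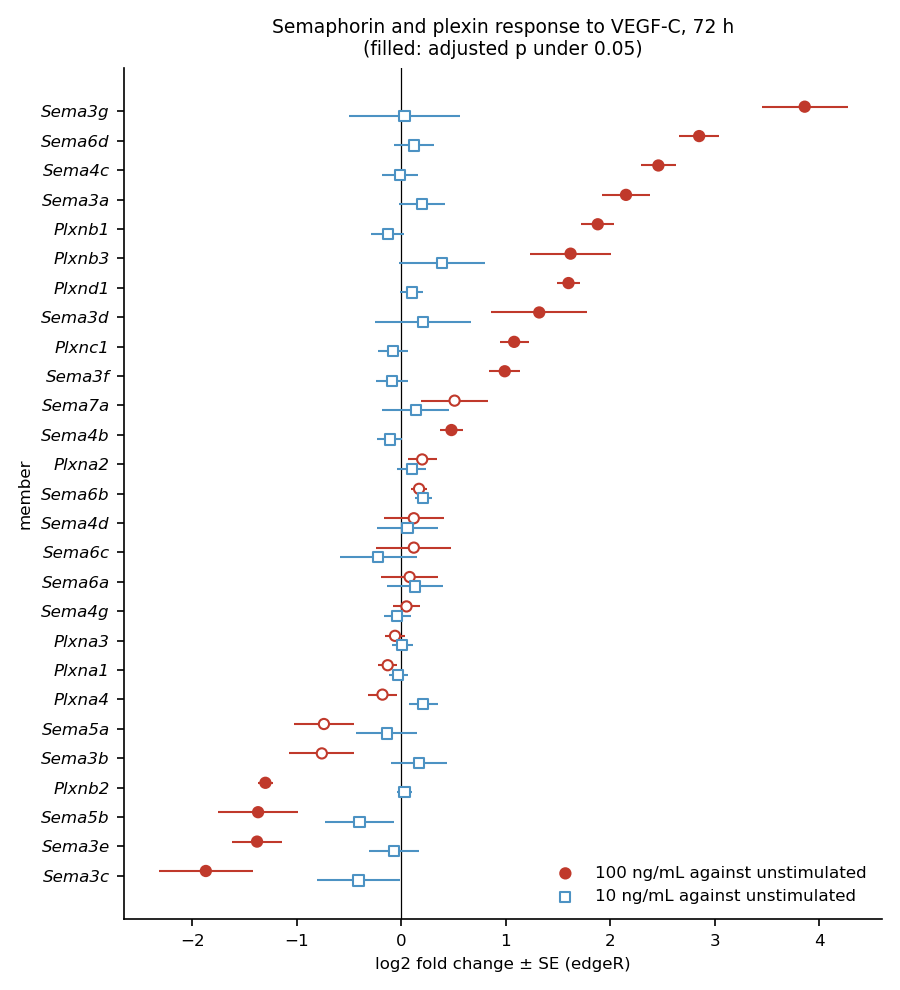
Log2 fold change with its standard error (x axis) of the 27 tested members (y axis, sorted by the change at 100 ng/mL), for 100 ng/mL against unstimulated cells (red circles) and 10 ng/mL against unstimulated cells (blue squares), 5 libraries per group. Filled symbols passed an adjusted p of 0.05: 11 members lie to the right and 4 to the left at 100 ng/mL, and every symbol for 10 ng/mL is open.

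Before the single members, the libraries and the cells were examined. Library totals ran from 27784906 to 38590841 estimated counts. Libraries 100 ng/mL B, 10 ng/mL D and unstimulated E stood apart from their groups on the second principal component, and each result below was also computed without these 3 libraries. On the first component, 100 ng/mL B lay at 38.8, against 69.8 to 78.5 for the rest of its group. Unstimulated libraries lay there at -41.8 to -31.1. On the second, 100 ng/mL C lay at 30.8, against -5.5, -4.6 and 13.5 for A, D and E of its group. Of the markers of the labelled cells, Prox1, Lyve1, Flt4, Pdpn, Pecam1 and Cdh5 were present in every library, while Ccl21a was at most 0.131 CPM (counts scaled to the library total with TMM factors) and Mmrn1 at most 0.0311 CPM. The list of 10 LEC markers summed to 7060.6 to 10347.4 CPM at 100 ng/mL, against 4824.4 to 5584 CPM in unstimulated cells. Of 8 tested genes 6 were higher and none lower, while Prox1 and Pdpn did not pass (edgeR adjusted p = 0.0599 and 0.454). Cdh5 and Pecam1 were the largest terms of the sum, at means of 2161.8 and 1587.5 CPM in unstimulated cells. A list of 14 fibroblastic and mural markers summed to 928.6 to 1362.3 CPM at 100 ng/mL, against 3168.1 to 4658.7 CPM in unstimulated cells, with 11 of 13 tested genes lower and none higher. Leukocyte markers summed to 20.3 to 34.9 CPM at 100 ng/mL and 41.9 to 126.7 CPM in unstimulated cells, with 5 of 7 tested genes lower and Ms4a1 at 0 in all 15 libraries. Epithelial and mesothelial markers summed to 11 to 37.4 CPM at 100 ng/mL and 70.6 to 122.6 CPM in unstimulated cells, with 3 of 4 tested genes lower. Blood endothelial markers summed to 3712.7 to 4404.8 CPM at 100 ng/mL and 4596.3 to 5864.3 CPM in unstimulated cells, with 2 of 10 higher and 4 lower, and of the neural markers 1 of 4 tested was higher and 1 lower. In such bulk libraries fewer cells of a type and less RNA per cell cannot be told apart, and the part of these shifts in the members' values was not tested.

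The promoters of 4 members are shown: Plxnd1 and its ligand gene Sema3e, because they changed in opposite directions, and Sema3g and Plxnb1, the semaphorin and the plexin with the largest fold change. Each runs 5′ to 3′ over 250 bases before and 50 after the start given by RefSeq on GRCm38.p6. Capitals mark matches on either strand to the motifs named after them. The windows are chr6:115994956-115995255 on the minus strand for Plxnd1, chr5:14025026-14025325 on the plus strand for Sema3e, chr14:31217623-31217922 on the plus strand for Sema3g and chr9:109095186-109095485 on the plus strand for Plxnb1.
Plxnd1: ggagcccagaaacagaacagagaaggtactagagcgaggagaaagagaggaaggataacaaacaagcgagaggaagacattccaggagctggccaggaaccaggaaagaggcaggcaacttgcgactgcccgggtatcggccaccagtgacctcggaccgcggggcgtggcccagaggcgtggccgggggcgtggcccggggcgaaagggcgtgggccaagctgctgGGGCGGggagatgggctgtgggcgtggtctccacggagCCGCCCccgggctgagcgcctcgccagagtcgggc
Sema3e: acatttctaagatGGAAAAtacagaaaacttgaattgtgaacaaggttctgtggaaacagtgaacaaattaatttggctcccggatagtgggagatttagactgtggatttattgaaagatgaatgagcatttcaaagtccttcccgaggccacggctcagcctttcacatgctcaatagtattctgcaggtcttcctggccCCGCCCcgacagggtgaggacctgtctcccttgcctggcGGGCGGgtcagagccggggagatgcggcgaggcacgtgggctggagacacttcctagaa
Sema3g: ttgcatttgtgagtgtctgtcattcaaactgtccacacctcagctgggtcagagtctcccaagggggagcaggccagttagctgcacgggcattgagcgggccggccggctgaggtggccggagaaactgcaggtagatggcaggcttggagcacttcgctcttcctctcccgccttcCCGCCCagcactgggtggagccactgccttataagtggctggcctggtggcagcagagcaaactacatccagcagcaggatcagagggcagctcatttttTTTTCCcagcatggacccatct
Plxnb1: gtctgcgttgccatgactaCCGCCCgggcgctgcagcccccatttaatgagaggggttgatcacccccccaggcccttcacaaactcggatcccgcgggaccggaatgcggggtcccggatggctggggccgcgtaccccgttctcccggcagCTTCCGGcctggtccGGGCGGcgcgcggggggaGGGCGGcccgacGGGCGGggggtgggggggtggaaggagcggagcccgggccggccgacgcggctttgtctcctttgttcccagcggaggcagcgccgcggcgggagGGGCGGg
The GC content of these windows was 67% for Plxnd1, 50.7% for Sema3e, 58.7% for Sema3g and 74.7% for Plxnb1, against a median of 52.7% over all 32851 promoters in the table.

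The table held 35 promoters for 24 of the 29 members. The GC box GGGCGG, which Sp factors bind, lay in 25 of these 35 windows (71.4%), from 19 members, against 35.7% of all promoters. Some members gave more than 1 window, and the part of GC content in the motif shares given here was not tested. It lay in all 4 promoters shown, of the ligand gene that fell as well as of the genes that rose. The TATA box TATAAA and the forkhead motif TGTTTAC lay in no member window, against 13.6% and 3.65% of all promoters. The CCAAT box (CCAAT) lay in 20% of member windows and 37.4% of all, the NFAT core GGAAAA in 14.3% and 23.4%, and the SOX motif AACAAT in 5.71% and 10.7%. The ETS motif CCGGAAG lay in the Plxnb1 window alone among the members (2.86%, against 8.86% of all promoters), and the RBPJ motif GTGGGAA in that of Plxnb2 alone (2.86%, against 6.38%). Both strands were searched, and matches to GTGGGAA and GGAAAA can overlap in their shared letters.

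Of the secreted class 3 ligands, 4 of 7 were higher and 2 were lower at 100 ng/mL, where 21.3% of all genes were higher and 21.5% lower. Only Sema3b did not pass. Together they had a summed RPKM (reads scaled to gene length and library total) of 38.1 ± 4.84 at 100 ng/mL, against 22.3 ± 1.59 in unstimulated cells (SD, n = 5 each). Sema3f made up most of that sum in both groups. Sema3e was second in unstimulated cells, while Sema3a and Sema3d averaged more than Sema3e at 100 ng/mL.

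Sema3f (chr9:107681500-107710475, minus strand, GRCm38), which binds Nrp2, is known to repel endothelial cells. Its CPM in libraries A to E was 315.1, 235.7, 177.5, 312.9 and 257.7 at 100 ng/mL, against 111.8, 130.3, 120.7, 143.9 and 145.4 in unstimulated cells. Every 100 ng/mL library lay above every unstimulated one. Sema3f rose by 0.99 ± 0.15 on the log2 scale (SE, edgeR adjusted p = 8.8e-05). Its share of the class 3 RPKM was 68.1 ± 9.38% at 100 ng/mL and 60.2 ± 3.12% in unstimulated cells.

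Sema3e (chr5:14025276-14256689, plus strand) is the ligand of Plxnd1 and needs no neuropilin to bind it. It measured 32.1, 74.6, 27.1, 29.7 and 24.8 CPM in libraries A to E at 100 ng/mL, and 85.2, 100.43, 85.8, 115.1 and 102.7 CPM in unstimulated libraries. The groups did not overlap, and library B of the 100 ng/mL group lay nearest to the unstimulated ones. Sema3e fell by 1.38 ± 0.24 on the log2 scale (SE, edgeR adjusted p = 0.000373). With 100 ng/mL B left out it fell by 1.78 (adjusted p = 1.19e-08). Its share of class 3 RPKM was 5.87 ± 4.06% at 100 ng/mL, against 25.3 ± 1.41% in unstimulated cells.

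Sema3a (chr5:13125414-13602565, plus strand), the repellent ligand that binds Nrp1, had 122.4, 58.8, 202.2, 119.7 and 163.7 CPM at 100 ng/mL, against 30.1, 26.1, 33.7, 32.1 and 28.7 CPM in unstimulated cells. The 100 ng/mL libraries spread widely, from B to C, yet all lay above the unstimulated ones. The log2 fold change was 2.15 ± 0.23 (SE, edgeR adjusted p = 3.8e-06). Sema3a has 1.18% of its 50-base windows in another gene, Gm43431, so a small part of its count is uncertain.

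Sema3g (chr14:31217860-31230352, plus strand), a ligand gene known from endothelium, was barely detected without VEGF-C. It had 5.64, 1.4, 2.1, 4.05 and 3.84 CPM at 100 ng/mL, from 41.7 to 181.2 estimated counts per library. The unstimulated libraries had 0.0793, 0.269, 0.124, 0.278 and 0.406 CPM, from 3.01 to 14.8 counts. Sema3g passed the filter on low counts through its 100 ng/mL libraries, so its test and rank are not independent of the high values there. Its log2 fold change of 3.86 ± 0.41 (SE, edgeR adjusted p = 3.77e-06) was the highest of the tested members, at 14.5-fold. Its level stayed low, at 0.992 ± 0.396% of the class 3 RPKM. With the 3 libraries that stood apart left out, the change was 4.38 (adjusted p = 1.37e-06).

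Sema3d, a ligand of endothelial and neural crest cells, varied widely within groups. Its CPM was 67, 28, 112.2, 71.5 and 79.8 at 100 ng/mL and 35.5, 39.1, 37.2, 22.9 and 8.86 in unstimulated cells. Library B of the 100 ng/mL group lay among the unstimulated values, and unstimulated E was far below its group. The change of 1.32 ± 0.46 on the log2 scale passed the test narrowly (edgeR adjusted p = 0.0312). It did not pass without unstimulated E (adjusted p = 0.0555) or D (0.0677), without 100 ng/mL C (0.0783), D (0.0524) or E (0.0564), or with no filter on low counts (0.0555), while without the 3 libraries that stood apart it was 1.29 (adjusted p = 0.000662).

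Sema3c, a neuropilin ligand that also acts on Plxnd1, was near the floor. It measured 0.623, 1.04, 0.295, 0.474 and 0.256 CPM at 100 ng/mL, against 1.35, 1.01, 1.12, 3.8 and 2.52 CPM in unstimulated cells. The groups met at 100 ng/mL B and unstimulated B. Sema3c fell by 1.87 ± 0.45 on the log2 scale (SE, edgeR adjusted p = 0.00357). Sema3b, another neuropilin ligand, measured 0.249, 0.267, 0.295, 0.328 and 0.256 CPM at 100 ng/mL and 0.529, 0.388, 0.62, 0.278 and 0.542 CPM in unstimulated cells. Its log2 fold change was -0.76 ± 0.31 (SE, edgeR adjusted p = 0.0592), and it passed under several alternatives. The fibroblastic, leukocyte and epithelial marker sums were also lower in the 100 ng/mL libraries, and their part in these low values was not tested.

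**Figure D2:**
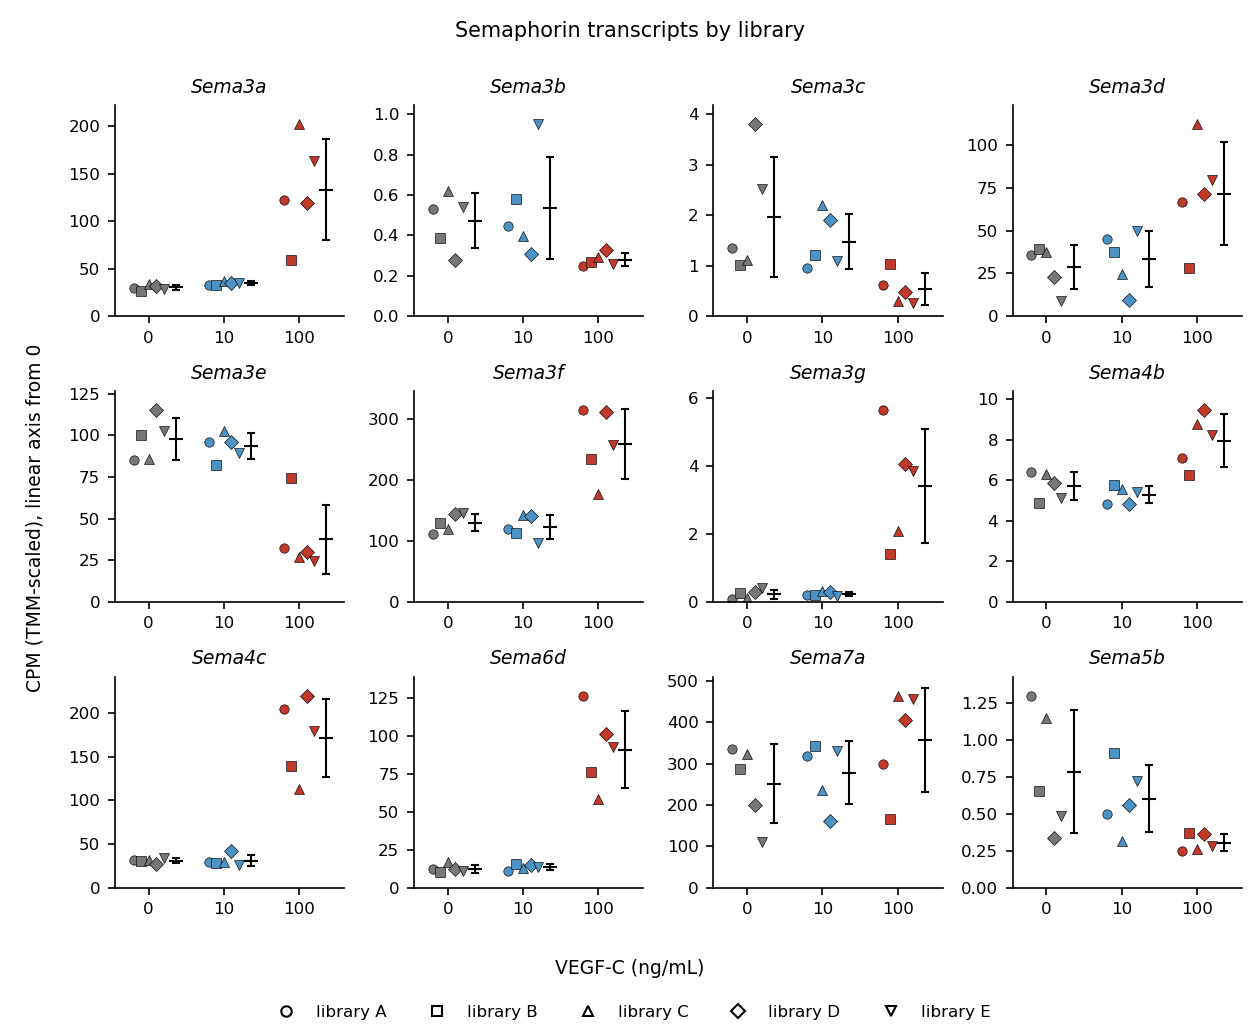
CPM (y axes, linear from 0, 1 panel per gene) of 12 semaphorins in the 5 libraries at each VEGF-C dose (x axes, ng/mL). Symbols mark the library letter, and the bar beside each group is its mean with SD. The 100 ng/mL points of Sema3g, Sema4c and Sema6d lie above all others, those of Sema3e lie below all others with library B nearest to the lower doses, and the Sema3d and Sema7a groups overlap.

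Of the 11 tested membrane-bound semaphorins, 3 were higher at 100 ng/mL (Sema4b, Sema4c and Sema6d), 1 was lower (Sema5b) and 7 did not pass. Of all genes tested, 21.3% were higher and 21.5% lower. The first count lies near that share and the second below it, so they show nothing particular to this list. All 13 of the list had a summed RPKM of 106.1 ± 24.8 at 100 ng/mL, against 67.7 ± 17.7 in unstimulated cells (SD, n = 5 each). Sema7a was the most abundant of them in both groups.

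Sema4c (chr1:36548639-36558349, minus strand), a ligand of Plxnb2, measured 204.9, 139.4, 113.2, 219.5 and 179.5 CPM at 100 ng/mL, against 32.4, 30.9, 31.3, 27.3 and 34.2 CPM in unstimulated cells. Each 100 ng/mL library exceeded each unstimulated one by a wide margin. Sema4c rose by 2.46 ± 0.17 on the log2 scale (SE, edgeR adjusted p = 8.13e-08). By RPKM, Sema4c was 20.5 ± 5.84% of the membrane-bound semaphorins at 100 ng/mL and 6.24 ± 2.24% in unstimulated cells. The annotation places D430040D24Rik over its exons on the opposite strand, so its count is uncertain if strand was not used.

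Sema6d (chr2:124089969-124667770, plus strand), a ligand of Plxna1, measured 126, 76.2, 58.4, 101.2 and 92.7 CPM at 100 ng/mL and 12.5, 10.21, 17.1, 12.2 and 11 CPM in unstimulated cells. The lowest 100 ng/mL library, C, was still above the highest unstimulated one. Sema6d rose by 2.85 ± 0.19 on the log2 scale (SE, edgeR adjusted p = 5.72e-08), or 7.22-fold. Plxna1, its receptor gene, measured 119.2 to 175.8 CPM at 100 ng/mL and 147.4 to 177.1 CPM in unstimulated cells and did not pass the test (adjusted p = 0.265).

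Sema4b, a transmembrane semaphorin, measured 7.1, 6.24, 8.78, 9.45 and 8.23 CPM at 100 ng/mL and 6.4, 4.86, 6.3, 5.84 and 5.12 CPM in unstimulated cells. Library B of the 100 ng/mL group fell within the unstimulated range. The rise was small, at 0.48 ± 0.11 on the log2 scale (SE, edgeR adjusted p = 0.00349). Sema5b, which carries thrombospondin repeats, measured 0.249, 0.367, 0.262, 0.365 and 0.285 CPM at 100 ng/mL, against 1.3, 0.657, 1.15, 0.34 and 0.488 CPM in unstimulated cells. The 2 groups overlapped at unstimulated D. Sema5b fell by 1.37 ± 0.38 on the log2 scale (SE, edgeR adjusted p = 0.00859), on 7.5 to 11.1 counts per library at 100 ng/mL and 11.3 to 48.8 in unstimulated cells.

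Sema7a, a ligand of Plxnc1 and of integrins, measured 167.2 to 463.5 CPM at 100 ng/mL and 111.6 to 335.6 CPM in unstimulated cells. The groups overlapped, with 100 ng/mL B and unstimulated E the lowest of each. The log2 fold change was 0.51 ± 0.32 (SE, edgeR adjusted p = 0.22), and without the 3 libraries that stood apart it was 0.50 and passed (adjusted p = 0.0371). Sema6b, a ligand of class A plexins, measured 101.7 to 125.7 CPM at 100 ng/mL and 84.1 to 114.7 CPM in unstimulated cells (adjusted p = 0.104). Sema6a, which binds Plxna2 and Plxna4, measured 42.4 to 139.2 CPM at 100 ng/mL and 49.4 to 113.4 CPM in unstimulated cells (adjusted p = 0.842).

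Sema4d, the ligand of Plxnb1, measured 9.15 to 24.9 CPM at 100 ng/mL and 8.67 to 20.5 CPM in unstimulated cells (edgeR adjusted p = 0.764). Sema5a, a ligand of Plxnb3, measured 4.01 to 7.71 CPM at 100 ng/mL and 6.37 to 13.9 CPM in unstimulated cells (-0.74 ± 0.29 on the log2 scale, edgeR adjusted p = 0.0525). Sema5a lay close to the threshold and passed it under several alternatives. Sema4g measured 3.36 to 4.42 CPM at 100 ng/mL and 2.54 to 4.34 CPM in unstimulated cells, and Sema6c 0.167 to 1.31 CPM at 100 ng/mL and 0.423 to 0.686 CPM in unstimulated cells. Sema4g and Sema6c had adjusted p-values of 0.792 and 0.828.

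Of the 9 plexins, 4 were higher at 100 ng/mL (Plxnb1, Plxnb3, Plxnc1 and Plxnd1), 1 was lower (Plxnb2), and the 4 class A plexins did not pass. The shares over all genes tested were 21.3% higher and 21.5% lower. All 9 had a summed RPKM of 210.3 ± 26.6 at 100 ng/mL, against 124.2 ± 5.76 in unstimulated cells (SD, n = 5 each). Within that sum Plxnd1 took a larger share and Plxnb2 a smaller one at 100 ng/mL.

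Plxnd1 (chr6:115954811-115995005, minus strand), the Sema3e receptor of endothelium, measured 2703.3, 2097.3, 1806.8, 2510.9 and 2329.8 CPM at 100 ng/mL, against 807.3, 772, 789.1, 787.6 and 619.1 CPM in unstimulated cells. No unstimulated library reached the lowest 100 ng/mL library. Plxnd1 rose by 1.60 ± 0.11 on the log2 scale (SE, edgeR adjusted p = 5.06e-08), or 3.03-fold. Its share of the plexin RPKM was 78.9 ± 2.74% at 100 ng/mL, from 75.1 to 81%, and 45.3 ± 2.51% in unstimulated cells, from 40.9 to 47%.

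Plxnb2 (chr15:89155549-89180788, minus strand), a receptor of Sema4c, measured 213.6, 265.4, 235.4, 203.6 and 217.8 CPM at 100 ng/mL, against 566, 532.5, 574.7, 573 and 543.6 CPM in unstimulated cells. The groups lay far apart and each was tight. Plxnb2 fell by 1.30 ± 0.07 on the log2 scale (SE, edgeR adjusted p = 1.39e-08), which is the smallest adjusted p of any member. Its share of the plexin RPKM was 8.08 ± 1.69% at 100 ng/mL and 33.9 ± 1.42% in unstimulated cells.

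**Figure D3:**
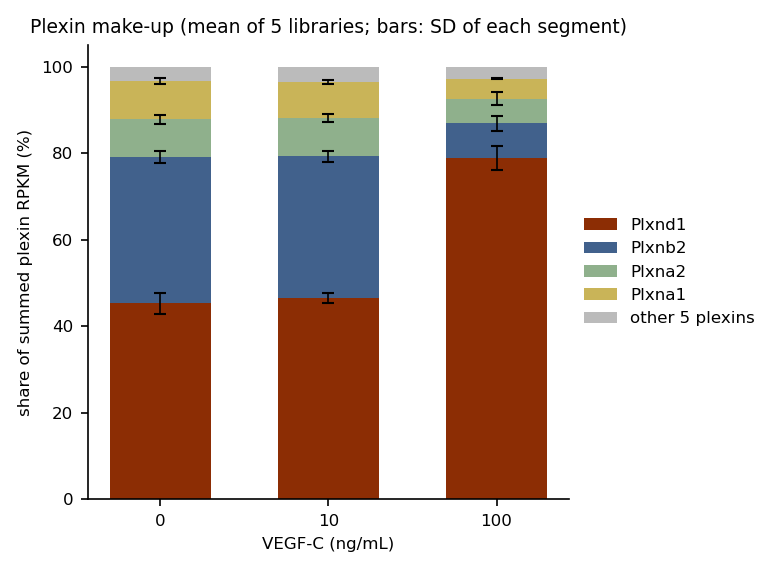
Share of the summed plexin RPKM (y axis, %) taken by Plxnd1, Plxnb2, Plxna2, Plxna1 and the remaining plexins together at each VEGF-C dose (x axis, ng/mL). Segments are means of 5 libraries and error bars are the SD of the segment below them. The segment of the remaining plexins has no error bar. Plxnd1 holds 45.3% at 0, 46.5% at 10 and 78.9% at 100 ng/mL, and Plxnb2 holds 33.9%, 32.9% and 8.08%.

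The Plxnd1 transcript rose while that of its ligand Sema3e fell, and the ratio of their RPKM values sums this up. It was 108.2, 36.2, 86, 108.6 and 120.6 in the 100 ng/mL libraries A to E, against 12.2, 9.89, 11.8, 8.8 and 7.76 in the unstimulated ones. Library B was the lowest of the 100 ng/mL group and still above every unstimulated library. Since the groups overlapped for neither gene, their ratios could not overlap, and the gap between them adds nothing to the single genes. For Plxnb2 and its ligand Sema4c the order was the reverse, with the receptor transcript lower and the ligand transcript higher at 100 ng/mL.

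Plxnb1 (chr9:109095389-109119917, plus strand), the Sema4d receptor, had 32.8, 20.2, 37.1, 36.4 and 41 CPM at 100 ng/mL, against 10.37, 9.49, 9.18, 8.47 and 8.05 CPM in unstimulated cells. Library B was the lowest at 100 ng/mL and still above the unstimulated range. Plxnb1 rose by 1.88 ± 0.16 on the log2 scale (SE, edgeR adjusted p = 3.36e-07). The gene Gm7628 overlaps its exons on the opposite strand.

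Plxnc1 (chr10:94790866-94944835, minus strand), the Sema7a receptor, had 13.5, 10.45, 7.67, 12.2 and 11.5 CPM at 100 ng/mL, against 5.87, 5.01, 5.37, 5.07 and 4.88 CPM in unstimulated cells. The groups did not overlap. The log2 fold change was 1.08 ± 0.14 (SE, edgeR adjusted p = 2.48e-05). Gm48718 overlaps 115 of its exonic bases (1.38%) on the same strand, so that part of its count is uncertain.

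Plxnb3 (chrX:73757090-73772514, plus strand), the Sema5a receptor, was low in both groups. It measured 1.99, 0.768, 5.86, 2.15 and 3.13 CPM at 100 ng/mL and 1.03, 0.985, 1.09, 0.866 and 0.569 CPM in unstimulated cells. Library B of the 100 ng/mL group lay within the unstimulated range, and C was well above the others. The log2 fold change was 1.62 ± 0.39 (SE, edgeR adjusted p = 0.00388).

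None of the class A plexins, the signalling partners of neuropilins, passed at 100 ng/mL in the fit of group alone to all 15 libraries. Plxna2, the highest of them in CPM, measured 290.5 to 543.7 CPM at 100 ng/mL and 316.2 to 366.8 CPM in unstimulated cells (0.20 ± 0.14 on the log2 scale, edgeR adjusted p = 0.266). The 100 ng/mL libraries lay on both sides of the unstimulated range, and with surrogate variables as terms Plxna2 passed at 0.21 (adjusted p = 0.00937). Plxna3 measured 6.06 to 7.85 CPM at 100 ng/mL and 6.09 to 8.44 CPM in unstimulated cells (adjusted p = 0.702). Plxna4 had 66.7, 56, 59.8, 57.6 and 63.2 CPM at 100 ng/mL and 69.6, 71.4, 80.5, 73.9 and 47.9 CPM in unstimulated cells (-0.18 ± 0.14, adjusted p = 0.336). Only unstimulated E lay below the 100 ng/mL libraries of Plxna4, and without the 3 libraries that stood apart it passed at -0.26 (adjusted p = 0.0227), as it did with surrogate variables (-0.20, adjusted p = 0.0264). Plxna1 and Plxna4 are overlapped on the opposite strand by Gm26811 and Plxna4os3. Plxna2 has 1.53% of its 50-base windows in another gene, mainly Ppp2r5a, so a small part of its count is uncertain.

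**Figure D4:**
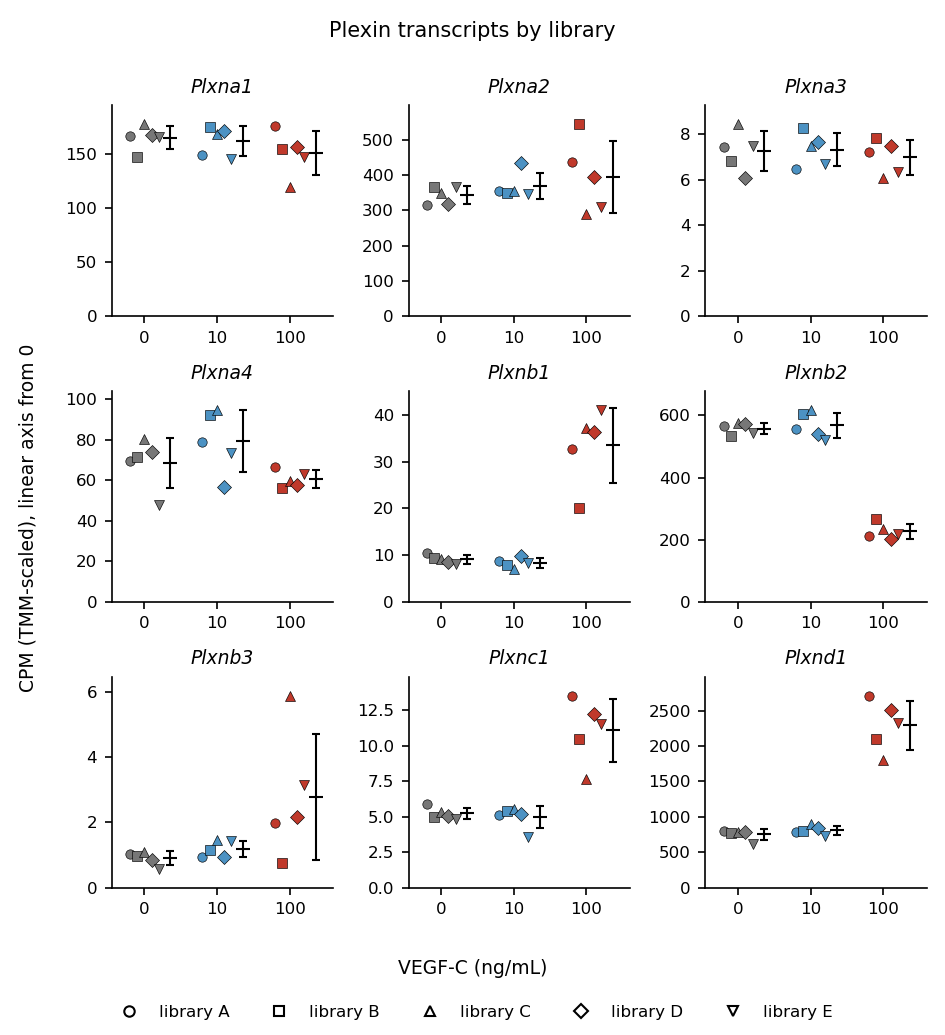
CPM (y axes, linear from 0, 1 panel per gene) of the 9 plexins in the 5 libraries at each VEGF-C dose (x axes, ng/mL). Symbols mark the library letter, and the bar beside each group is its mean with SD. Plxnd1, Plxnb1 and Plxnc1 at 100 ng/mL lie above all other libraries, Plxnb2 lies below them, and the class A plexins overlap between doses.

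Set on the RPKM scale, which allows levels of different genes to be compared, 7 members averaged at least 10 RPKM at 100 ng/mL and 7 in unstimulated cells. At 100 ng/mL Plxnd1 led with 166.3 ± 25.2 RPKM (SD, n = 5), and none of its libraries overlapped those of the next, Sema7a. Sema7a (56.9 ± 20.1 RPKM), Sema3f, Sema4c (21 ± 5.47 RPKM), Plxnb2, Sema6b and Plxna2 followed, and each of these overlapped the next in the order. In unstimulated cells Plxnd1 led with 56.3 ± 5.27 RPKM and did not overlap Plxnb2 (42.1 ± 1.41 RPKM). Sema7a, at 41 ± 15.4 RPKM, overlapped Plxnb2 but not Sema6b, the next below it.

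At 10 ng/mL no gene of 17650 passed the edgeR test (0%), while 843 had an unadjusted p under 0.05, and the smallest adjusted p was 0.97. With surrogate variables as terms 74 genes were higher and 36 lower, and DESeq2's Wald test gave 8 and 2, with no member among them. Among the members, the log2 fold change ran from -0.41 for Sema3c to 0.39 for Plxnb3, and the smallest unadjusted p was that of Sema6b (0.0228). Plxnd1 measured 791.8, 795.5, 902.7, 840.9 and 728.9 CPM at 10 ng/mL, with a log2 fold change of 0.10 ± 0.11 against unstimulated cells (SE). Plxnb2 measured 556.1, 604.3, 616.7, 540.9 and 521.7 CPM (0.03 ± 0.07), and Sema3e 96.4, 82.4, 102.9, 96 and 89.7 CPM (-0.07 ± 0.24). These ranges overlapped the unstimulated ones. The ratio of Plxnd1 to Sema3e RPKM was 10.46 to 12.4 at 10 ng/mL and 7.76 to 12.2 in unstimulated cells. A p that misses the threshold does not show that the 10 ng/mL and unstimulated levels are equal.

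The difference between the doses was tested as a contrast of its own. At 100 against 10 ng/mL, 10 members were higher and 5 lower by edgeR's test, where 19.9% of all genes were higher and 20.6% were lower. Both comparisons of the 100 ng/mL libraries share them, so their values are given side by side. Plxnd1 rose by 1.5 ± 0.11 on the log2 scale (SE, edgeR adjusted p = 1.11e-07) against 10 ng/mL and by 1.60 ± 0.11 against unstimulated cells. Plxnb2 fell by 1.32 ± 0.07 against 10 ng/mL (adjusted p = 1.86e-08), and Sema3e by 1.31 ± 0.24 (adjusted p = 0.000606). Sema3g rose by 3.83 ± 0.41, Sema6d by 2.73 ± 0.19, Sema4c by 2.46 ± 0.17, Plxnb1 by 2.00 ± 0.16, Sema3a by 1.95 ± 0.23 and Sema3f by 1.08 ± 0.15 on the log2 scale.

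Sema3b and Plxna4 passed against 10 ng/mL and not against unstimulated cells. Sema3b had 0.446, 0.579, 0.398, 0.308 and 0.949 CPM at 10 ng/mL and fell by 0.93 ± 0.30 on the log2 scale at 100 ng/mL (SE, edgeR adjusted p = 0.023). Without 10 ng/mL E or 100 ng/mL A it did not pass (adjusted p = 0.0678 and 0.0516). Plxna4 had 79, 92.2, 94.6, 56.9 and 73.6 CPM at 10 ng/mL and fell by 0.39 ± 0.14 (adjusted p = 0.0399), and this call was lost without any one of several libraries, at an adjusted p of up to 0.112. Sema3d and Sema5b did not pass against 10 ng/mL (adjusted p = 0.0664 and 0.0589). Sema3d had 44.8, 37.7, 24.8, 9.1 and 49.7 CPM at 10 ng/mL and Sema5b 0.501, 0.913, 0.318, 0.56 and 0.719 CPM.

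The other called members gave these 10 ng/mL values. Sema3a had 32.5, 32.7, 37.3, 35.4 and 34.9 CPM at 10 ng/mL, and Sema3f had 119.2, 112.9, 142.8, 141.3 and 96.7 CPM. Sema4c had 29.4, 28.5, 29.8, 41.8 and 25.8 CPM, with D the highest, and Sema6d 11.1, 15.5, 13, 15.1 and 13.8 CPM. For none of these 4 did a 10 ng/mL library reach the lowest 100 ng/mL library. Sema3g had 0.195, 0.213, 0.318, 0.28 and 0.173 CPM at 10 ng/mL and Sema3c 0.947, 1.22, 2.2, 1.9 and 1.09 CPM. Sema4b had 4.82, 5.75, 5.57, 4.84 and 5.44 CPM at 10 ng/mL. Sema3c met the 100 ng/mL range at its lowest library, while Sema3g and Sema4b did not. Plxnb1 had 8.69, 7.79, 7.13, 9.8 and 8.31 CPM at 10 ng/mL, Plxnb3 0.947, 1.16, 1.46, 0.952 and 1.44 CPM and Plxnc1 5.13, 5.39, 5.51, 5.18 and 3.6 CPM. Plxnb3 overlapped the 100 ng/mL group through its library B, and its call against 10 ng/mL (1.22 ± 0.38 on the log2 scale, edgeR adjusted p = 0.0189) was lost without 100 ng/mL C (0.76, adjusted p = 0.0586).

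The partners of plexins were counted from a list of 13 co-receptors and other semaphorin receptors. At 100 ng/mL 3 of the 12 tested were higher than in unstimulated cells and 4 were lower, where 21.3% of all genes were higher and 21.5% lower, so the counts lie near those over all genes. Kdr, the VEGF receptor that forms complexes with plexins, averaged 964.7 ± 133.5 CPM at 100 ng/mL and 309.6 ± 62.8 CPM in unstimulated cells (SD, n = 5 each), a log2 fold change of 1.64 ± 0.14 (SE, edgeR adjusted p = 3.81e-07). L1cam, an adhesion molecule of Sema3a receptor complexes, averaged 5.88 ± 0.523 CPM at 100 ng/mL and 1.81 ± 0.524 CPM in unstimulated cells (1.70 ± 0.21, adjusted p = 1.25e-05). Itga1, a subunit of an integrin that Sema7a binds, averaged 17.6 ± 2.04 CPM at 100 ng/mL and 39.9 ± 7.19 CPM in unstimulated cells (-1.18 ± 0.15, adjusted p = 2.11e-05). Met, a tyrosine kinase that pairs with class B plexins, averaged 93.5 ± 19.2 CPM at 100 ng/mL and 160.7 ± 11.7 CPM in unstimulated cells (-0.78 ± 0.11, adjusted p = 4.9e-05). Of the neuropilins, which bind class 3 ligands, Nrp2 was higher (0.85 ± 0.16, adjusted p = 0.000739), and Nrp1, at -0.69 ± 0.30, did not pass (adjusted p = 0.0796). The difference between the 2 neuropilins was not tested.

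Of 33 tested plexin effectors, 16 were higher and 7 were lower at 100 ng/mL, where 21.3% of all genes were higher and 21.5% lower, with a median log2 fold change of 0.17, against 0.008 over all genes. Crmp1, which carries Sema3a signals to the cytoskeleton, averaged 83.4 ± 12.8 CPM at 100 ng/mL and 12.2 ± 2.76 CPM in unstimulated cells (SD, n = 5 each), with a log2 fold change of 2.77 ± 0.20 (SE, edgeR adjusted p = 8.21e-08). Fyn, a kinase of plexin signalling, averaged 200.6 ± 25.9 CPM at 100 ng/mL and 77.1 ± 7.19 CPM in unstimulated cells (1.38 ± 0.10, adjusted p = 1.1e-07). Micall1, a relative of the plexin-binding MICAL enzymes, and Rasa1, which inactivates Ras, rose by 0.83 ± 0.07 and 0.57 ± 0.07 on the log2 scale (adjusted p = 3.63e-07 and 1.22e-05).

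All 8 proteases that can cleave semaphorins passed the test, 7 higher and 1 lower at 100 ng/mL, where 21.3% of all genes were higher and 21.5% lower. The groups did not overlap for 5 of the 8, where 27.2% of all genes had no overlap. Pcsk6, a proprotein convertase, averaged 192.5 ± 47.1 CPM at 100 ng/mL and 35.4 ± 13.3 CPM in unstimulated cells (SD, n = 5 each), with a log2 fold change of 2.44 ± 0.25 (SE, edgeR adjusted p = 2.53e-06). Pcsk5, another convertase, averaged 2.06 ± 1.3 CPM at 100 ng/mL and 19.2 ± 11.8 CPM in unstimulated cells (-3.22 ± 0.53, adjusted p = 0.000177). Mmp14, which releases Sema4d from human tumour cells, averaged 383.1 ± 24.7 CPM at 100 ng/mL and 220.8 ± 25.4 CPM in unstimulated cells (0.79 ± 0.09, adjusted p = 9.51e-06). Adamts1, which cleaves Sema3c in human cells, averaged 358.5 ± 53.1 CPM at 100 ng/mL and 118.5 ± 25.5 CPM in unstimulated cells (1.60 ± 0.20, adjusted p = 1.49e-05). These 3 lists were chosen with earlier results of the data known, so their counts describe them and are not independent evidence of a direction.

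Members were also compared within groups, in the 3 libraries that stood apart. Plxna4, Sema3d, Sema4d, Sema6a and Sema7a were lowest of their group in each of 100 ng/mL B, 10 ng/mL D and unstimulated E, which is 5 of 27 members, where 13.9% of all genes tested were so. Plxna2 was highest in each, 1 of 27, where 14% of all genes were. The first count is near the share over all genes and the second is below it, so they show nothing particular to these members. The LEC markers did not move one way in these libraries. Prox1, the LEC transcription factor, was lowest in all 3, at 193.2 CPM in 100 ng/mL B (335.9 to 813.5 in the other 4), 158 CPM in 10 ng/mL D (192.8 to 361.3) and 101.6 CPM in unstimulated E (155.1 to 323.2). Lyve1, a hyaluronan receptor, was lowest in 100 ng/mL B (558.5 CPM, against 697.6 to 1192.9 in the other 4) but highest in 10 ng/mL D (272.1 CPM, against 89.5 to 119.1) and in unstimulated E (184.8 CPM, against 63 to 107.9). Pdpn was likewise highest in 10 ng/mL D (156.2 CPM) and unstimulated E (181.2 CPM) and within the range of the others in 100 ng/mL B (122.3 CPM). The blood endothelial sum was the highest of its group in all 3 libraries. It was 4404.8 CPM in 100 ng/mL B, 5639.9 CPM in 10 ng/mL D and 5864.3 CPM in unstimulated E. The neural sum, with Tubb3 as its largest term, was also highest in each, at 52.9, 57.2 and 70.7 CPM in that order. No other marker list had its highest sum, or its lowest, in all 3. The part of these markers in the members' values was not tested. Without the 3 libraries, 12 members were higher and 5 lower at 100 ng/mL than in unstimulated cells. Calls over all genes rose as well, to 4083 higher and 4151 lower of 17618 tested, from 3766 and 3789 of 17650 with all 15 libraries.

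**Figure D5:**
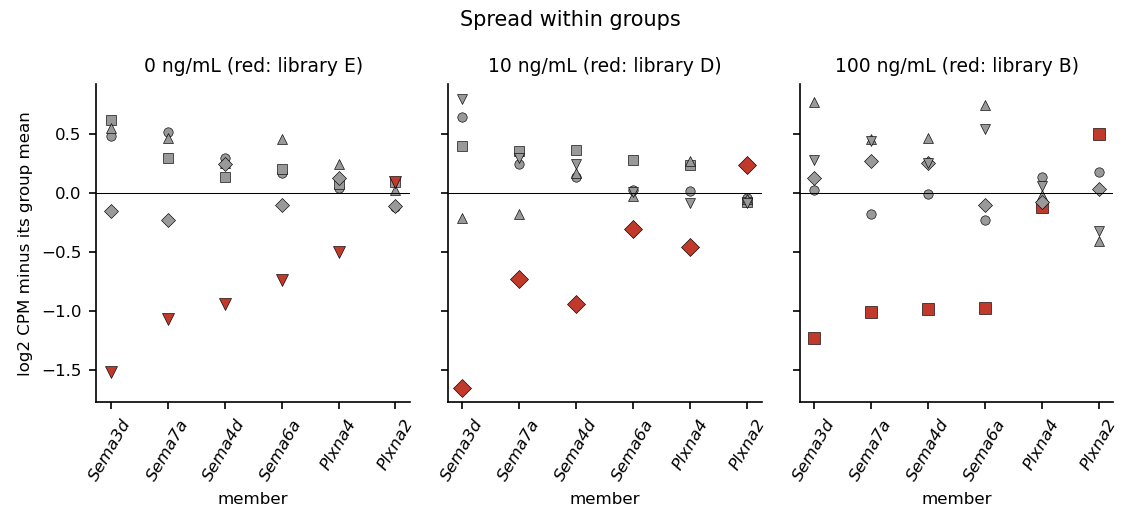
Log2 CPM of 6 members minus the mean of their group (y axis; x axis, gene), in 1 panel per VEGF-C dose. Red marks 100 ng/mL B, 10 ng/mL D and unstimulated E, and grey the other libraries. The red points of Sema3d, Sema7a, Sema4d, Sema6a and Plxna4 are the lowest of each panel, and those of Plxna2 the highest.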

How the data were processed

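Poly-A RNA of 15 libraries was sequenced with a stranded kit, per the labels. The authors deposited 1 table that gives, per gene and library, an estimated count and its RPKM. The submitters' processing notes list limma, Bowtie2 and FastQC, without versions, and 2 build names, GRCm38 and mm10. Not given in the sources used here are the counter, its strand setting and how it treated reads matching several genes. Of the estimated counts deposited, 64.3% were fractional. The RPKM values deposited by the authors rest on a library total 1.86 to 1.92 times the summed counts. A second deposited table was not used.

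Groups and letters came from the sample titles. Counts were rounded, kept by filterByExpr (17650 genes), scaled by TMM and fitted over all 15 libraries with edgeR 4.0.16 (quasi-likelihood, robust) in R 4.3.3. Adjusted p-values are Benjamini-Hochberg values over all these genes. The labels do not say that libraries came from separate cultures, so the spread that p-values measure is the one between these libraries and may be technical. No library repeated another, with a chi-square of at least 7.95 per degree of freedom within groups. Same-letter libraries did not deviate together (correlations of -0.342 to 0.132), so letters were not used as pairs. The deviations of 10 ng/mL A to E correlated best with unstimulated B, C, D, E and A in turn. Those of 100 ng/mL A to E correlated best with 10 ng/mL C, D, E, A and B, and with unstimulated D, E, B, B and C. Thus 100 ng/mL B was matched with 10 ng/mL D, and both with unstimulated E, which are the libraries that stood apart. The labels give no pairing under shifted letters. Such a pairing was neither modelled nor tested, so the fit ignores any source that libraries of different groups share. The fit was also run on simulated counts drawn independently for each library. Such counts hold no source that libraries share, so that run cannot show how the fit performs on these data. Precision rests on 5 libraries per group.

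The members and lists were chosen with earlier results of these data known. By rule, members called in any comparison are given in every library and others by range, and the 4 called genes with the smallest p are named per pathway list. Alternatives used DESeq2 1.42.0, limma 3.58.1 and sva 3.50.0. Coordinates are from GENCODE M21 and promoters from RefSeq. Some differ from the coordinates in the deposited table, which the counts rest on. The GENCODE end minus the deposited end was 9668 bases for Plxnb2, 257 for Plxnc1 and 133 for Sema4b. For Sema4d the GENCODE start minus the deposited start was -15715 bases. In GENCODE 6 members overlap another gene's exons, and at most 1.53% of a member's 50-base windows occur in another gene.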

Additional observations from a re-analysis of the deposited data

Results flagged for a closer look

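A library was marked where its gap to the nearest of the other 4, divided by the range of the group, exceeded Dixon's critical value of 0.71. Over 81 groups 7 were marked, and chance marks about 1 in 20.

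Sema3e had 74.6 CPM in 100 ng/mL B, against 24.8 to 32.1 CPM in the other 4 libraries. Plxnd1 had 619.1 CPM in unstimulated E, against 772 to 807.3 CPM. Sema4d had 9.1 CPM in 10 ng/mL D, against 19.2 to 22.5 CPM, and 8.67 CPM in unstimulated E, against 18.4 to 20.5 CPM. Sema4c had 41.8 CPM and Plxna2 433.3 CPM in 10 ng/mL D, against 25.8 to 29.8 CPM and 346.3 to 355.4 CPM. Plxnc1 had 3.6 CPM in 10 ng/mL E, against 5.13 to 5.51 CPM. All but the last lie in the 3 libraries that stood apart from their groups over all genes.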

How the results depend on the processing

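Under 28 alternatives, 25 of the 30 calls of a member in a comparison passed under every one that tested them, 5 missed under at least 1, and 0 reversed. The calls that missed were Sema3d against unstimulated cells and Sema3b, Sema3c, Plxna4 and Plxnb3 against 10 ng/mL. Another 9 values passed under an alternative only, those of Plxna2, Plxna4, Sema3b, Sema5a and Sema7a against unstimulated cells and of Sema3d, Sema5a, Sema5b and Sema7a against 10 ng/mL. For 100 ng/mL against unstimulated, a filter of 10 CPM in 5 libraries left 7 members higher and 2 lower, since fewer genes were tested. That filter gave 2423 genes higher and 2538 lower of 10373. Surrogate variables gave 7 members lower, and 5172 of all 17650 genes lower, against 3789 in the main fit. For 100 against 10 ng/mL, the filter of 10 CPM left 6 members higher and 3 lower, with 2311 genes higher and 2510 lower of 10373. In the same comparison limma on log2(RPKM + 1) gave 3 members lower, where the cause was not tested, and 3559 of 17650 genes lower. Leaving out each library in turn gave 10 to 11 higher and 4 to 6 lower against unstimulated cells, and 9 to 11 higher and 3 to 6 lower against 10 ng/mL, with 3 without 10 ng/mL E. At 10 ng/mL 0 members were called under each alternative run.

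With the letter as a replicate block, though the letters share no known pairing, Sema3d against unstimulated cells (1.34, adjusted p = 0.0607) and Plxna4 against 10 ng/mL (-0.37, adjusted p = 0.0564) missed the threshold, and it changed no other member's call. Low members (Sema3b, Sema3c, Sema3g, Sema5b, Sema6c and Plxnb3) rest on few counts, and their log2 changes shrink on the log2(RPKM + 1) scale, to 0.43 for Sema3g.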

Other observations

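The 5 libraries at 100 ng/mL differed from each other, and the 15 members called against unstimulated cells split by which library lay nearest to the unstimulated mean. Library B lay nearest for 10 of them (Plxnb1, Plxnb2, Plxnb3, Sema3a, Sema3c, Sema3d, Sema3e, Sema3g, Sema4b and Sema5b), and library C for the other 5 (Plxnc1, Plxnd1, Sema3f, Sema4c and Sema6d). Over all 7555 genes called in this comparison B lay nearest for 44.6% and C for 30.4%, against 7.93 to 8.92% for the other 3 libraries. Library C, where Sema3a (202.2 CPM), Sema3d (112.2 CPM) and Plxnb3 (5.86 CPM) had their highest values, thus had the lowest Plxnd1 (1806.8 CPM), Sema3f (177.5 CPM) and Sema4c (113.2 CPM) of its group. This split was looked for after the values were seen.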
